A study of Mus musculus with 40 samples.

Results

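Carboxylesterases are serine hydrolases that split ester bonds in neutral lipids, drugs and other foreign compounds, and the 10 genes described here, Ces1b, Ces1c, Ces1d, Ces1e, Ces1f, Ces1g, Ces2a, Ces2e, Ces3a and Ces3b, belong to this family. These 10 were chosen by their values in the comparison of knockout with control liver at each day, in which Ces1d was lower at all 4 days, so their values and calls in that comparison are given as a description, without a test, and nothing is read from them. They were 10 of the 55487 genes in the count table, and all 10 were among the 20297 genes that passed the filter on low counts. The table held 20 carboxylesterase genes in all, of which 14 passed that filter.

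In liver, most enzymes of this family sit inside the endoplasmic reticulum of hepatocytes. Members act on stored triglyceride and cholesteryl esters, among them the lipid that is later loaded onto lipoproteins, and on ester drugs. Rodents carry many copies of these genes next to each other, and some copies encode enzymes that are secreted into plasma.

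The study measured total RNA from whole liver of mice that lack Nampt, a rate-limiting enzyme of NAD synthesis, in hepatocytes. Hepatocyte-specific Nampt knockout mice (HNKO) carried 2 floxed Nampt alleles and 1 copy of the Alb-Cre transgene, and wild-type littermates (WT) carried floxed alleles without Cre. All animals were females on a C57BL/6JBomTac background, 9 weeks old when they were moved from chow to a purified diet (PD). The days of PD feeding, 3, 6, 12 or 21, are what the labels call age. Alb-Cre acts in hepatocytes, so the other cells of an HNKO liver keep Nampt, and a library from whole liver mixes all cell types.

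Each library came from 1 mouse. Day 3 had 5 libraries of each genotype. Day 6 had 4 from WT and 5 from HNKO mice, day 12 had 5 from WT and 6 from HNKO, and day 21 had 5 of each. Of the 5 HNKO libraries of day 21, libraries 17 and 18 were described as Failed QC and were left out, so that 38 libraries entered the comparisons. These 38 had 16151037 to 64181492 counts each, with a median of 26466478.5. Library 17 had 12287423 counts and library 18 had 15935527, and their values are given apart from the rest. The library numbers fall into a series from 1 to 21 and a series from 22 to 41, a split that the labels do not call a batch. All 3 HNKO libraries of day 21 that passed belong to the series from 22 to 41, so at that day the values of the series from 1 to 21 could not be compared.

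Levels are given as CPM, the count of a gene scaled to library size with TMM factors, with values for a group listed in the order of library number. Differences are log2 fold changes of HNKO against WT with their standard error (SE), and a gene is called when its p from edgeR's quasi-likelihood test, adjusted over the 20297 genes by the Benjamini-Hochberg method, is under 0.05.

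Nampt, the deleted gene, checks the genotype labels, and its mean was lower in HNKO liver at each day. At day 3, Nampt was at 70.8, 94.7, 80.00, 66.7 and 57.4 CPM in WT and at 39.6, 41.6, 36.9, 35.3 and 40.7 CPM in HNKO. At day 6 the values were 155, 136, 63.8 and 63.7 CPM in WT and 51.5, 82.03, 44.5, 46.8 and 56.1 CPM in HNKO. Every HNKO library of day 3 was below every WT library, whereas at day 6 library 7, at 82.0 CPM, was above 2 of the 4 WT libraries. At day 12, Nampt was at 68.9, 69.7, 151, 59.4 and 59.8 CPM in WT and between 30.3 and 54.5 CPM, with a median of 50.8 CPM, in the 6 HNKO libraries. At day 21 it was at 76.6, 91.9, 100.4, 86.7 and 86.3 CPM in WT and at 46.9, 65.1 and 52.9 CPM in HNKO. The groups did not overlap at days 12 and 21, and the failed libraries 17 and 18, at 56.6 and 56.9 CPM, lay among the HNKO values. The log2 fold changes of Nampt were -0.93 (SE 0.23), -0.90 (SE 0.24), -0.82 (SE 0.22) and -0.69 (SE 0.27). The adjusted p was 0.0193, 0.0128 and 0.0208 at the earlier days and 0.161 at day 21, so Nampt was not called lower at day 21. The count of a gene covers all its exons. What exons outside the floxed part, or cells in which Alb-Cre does not act, add to these values was not tested.

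The tissue label was checked against marker genes. Of 10 hepatocyte markers, 9 matched a gene name in the table, all 9 were detected in all 38 libraries, and the most abundant was Alb at 42695 to 119250 CPM. Of 5 markers of intestinal epithelium, a tissue that also expresses Ces2 genes, Cdx1 was at 0 in all libraries and Cdx2 and Lct in some. Fabp2, the most abundant of the 5, was at 25.98 to 97.6 CPM.

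In WT liver, Ces1c, which encodes a secreted esterase of mouse plasma, had by far the highest level per kilobase of exon. Its median over the 19 WT libraries was 1336 CPM per kilobase, with a range of 1061 to 1609. Ces3a followed at 266 CPM per kilobase and Ces1d, the triglyceride hydrolase of the hepatocyte endoplasmic reticulum, at 239.6. Next in level per kilobase came Ces3b at 115, Ces1f at 93.3, Ces1g at 86.3, Ces2e at 77.4, Ces2a at 47.6, Ces1e at 46.7 and Ces1b at 27.2. Only Ces1c was separate from the next gene in this order, since the ranges of all other neighbours overlapped. With the longest transcript as the length, Ces1c was at 1698 CPM per kilobase, Ces1f took rank 4 at 159, and Ces1d and Ces1e no longer overlapped with the next gene.

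Ces1c also made up most of the CPM per kilobase of exon summed over the 10 genes. Its median share of this sum was 54.4% in WT (46.1% to 62.0%) and 57.0% in HNKO (51.0% to 65.2%). The share of Ces1d was 10.3% in WT (7.65% to 14.4%) and 6.89% in HNKO (4.86% to 10.8%). Ces3a held 11.6% in WT (6.81% to 20.2%) and 15.8% in HNKO (7.09% to 21.2%). The ranges of WT and HNKO overlapped for each of these 3 genes, and a share also depends on the levels of the other members.

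**Figure D1:**
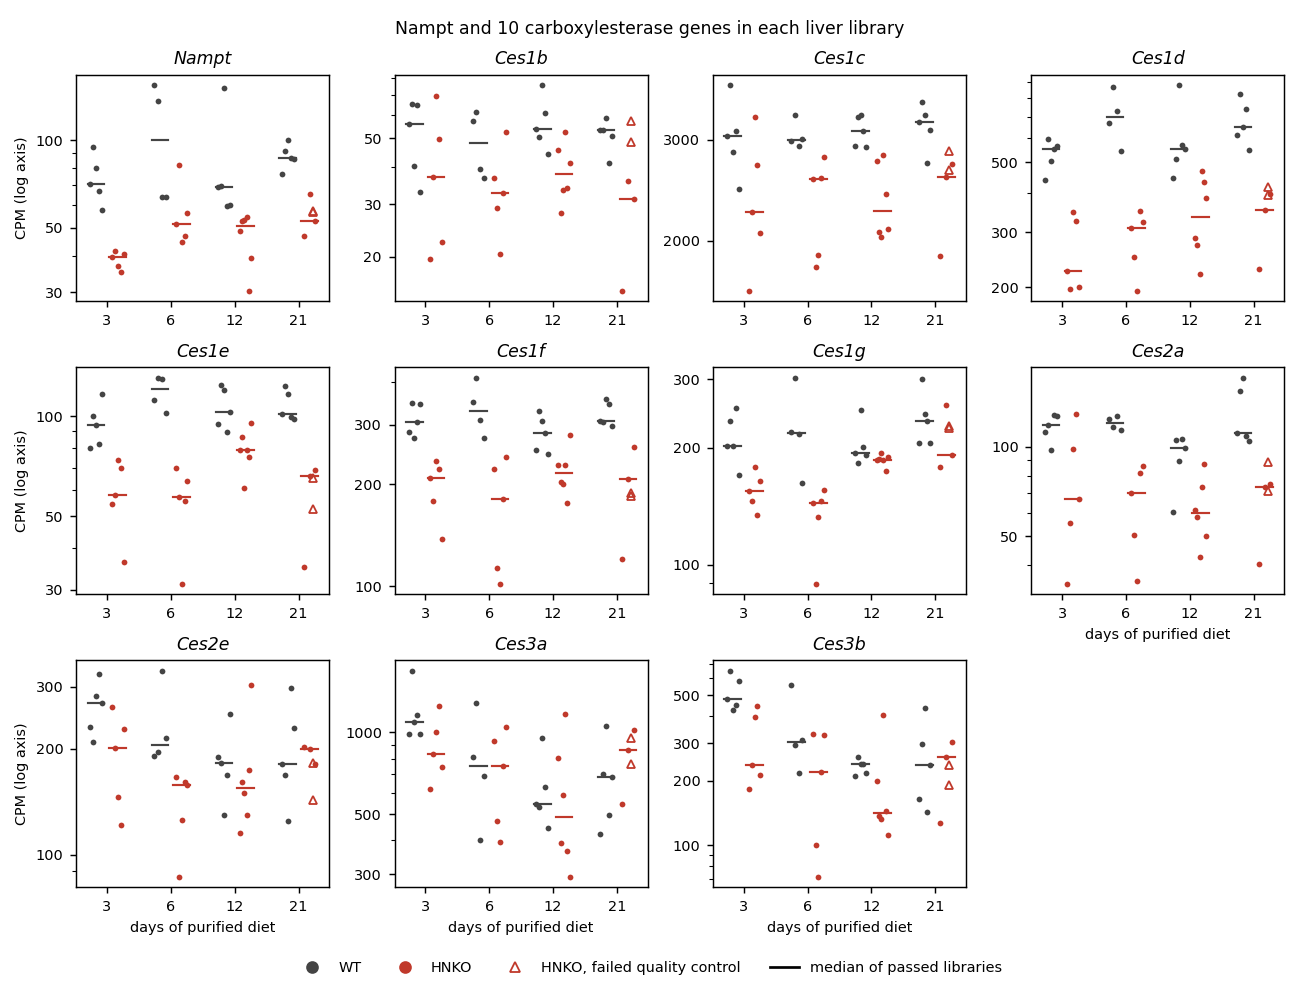
CPM of Nampt and of the 10 carboxylesterase genes in each library, on a log axis, against days of purified diet; grey points are WT, red points HNKO, open triangles the failed HNKO libraries 17 and 18, and lines the median of the passed libraries of a group. The HNKO points of Ces1d lie under all WT points at days 3, 6 and 21, with 1 of 6 HNKO libraries inside the WT range at day 12.

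Ces1d (ENSMUSG00000056973.6), which helps to mobilise stored triglyceride in hepatocytes for lipoprotein assembly, was lower in HNKO liver at each of the 4 days, with log2 fold changes from -0.78 to -1.30. At day 3 it was at 440.4, 593, 504, 552 and 563 CPM in WT and at 225, 198, 348, 325 and 201 CPM in HNKO. At day 6 the values were 668, 871, 731 and 543 CPM in WT and 309, 249.7, 195, 351 and 322 CPM in HNKO. At both days the highest HNKO library lay below the lowest WT library. At day 12, Ces1d was at 446, 515, 883, 568 and 553 CPM in WT, and in HNKO it ranged from 221 to 469.5 CPM with a median of 336 CPM. Here 5 of the 6 HNKO libraries were below all WT libraries, and library 32, at 469.5 CPM, was above library 14, at 446 CPM. At day 21 it was at 613, 828, 650.3, 738 and 549.6 CPM in WT and at 229, 354 and 398 CPM in HNKO, again without overlap. The failed libraries, at 418 and 394 CPM, were also below the 5 WT libraries. The log2 fold changes were -1.03 (SE 0.21), -1.30 (SE 0.22), -0.78 (SE 0.20) and -1.05 (SE 0.25) at days 3, 6, 12 and 21. Ces1d was called lower at all 4 days, as were 15 genes or 0.0739% of those tested, and this is the pattern by which the genes were chosen. The 4 comparisons use different animals. Its call at day 12 was lost without WT library 16, with a log2 fold change of -0.59, and with only the groups of that day in the fit, where the value was -0.77. Its call at day 21 was lost without HNKO library 37, at -0.83.

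Calls of the 10 genes are listed by day to show what the rule used. At day 3, 3 of the 10 were called lower, beside 1.71% of all tested genes called lower and 2.95% called higher. At day 6, 6 were called lower, beside 4.37% of all genes lower and 8.42% higher. These were Ces1d, Ces1e and Ces1f at day 3, joined at day 6 by Ces1g, Ces2a and Ces2e. At day 12 only Ces1d was called, beside 3.27% of genes lower and 4.56% higher. At day 21, Ces1d, Ces1e and Ces2a were called, beside 0.916% lower and 2.21% higher. Without library 37 none of these 3 calls of day 21 was left, and genes called lower over the whole table went from 186 to 1. At day 3, only the call of Ces1d was left without library 5, 2, 3 or 23. None of the 10 was called higher at any day, and since the rule used this comparison, nothing is read from these counts.

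At days 3, 6, 12 and 21, the number of members with every HNKO library below every WT library was 3, 7, 1 and 6. The same held for 1.8%, 4.68%, 2.14% and 6.7% of all tested genes. Group sizes differ between days, and the 3 HNKO libraries of day 21 make separation easier there. The median log2 fold change over the 10 was -0.53, -0.75, -0.38 and -0.57 at days 3, 6, 12 and 21, beside 0.01, -0.01, 0.00 and -0.01 over all tested genes. All 10 values were below 0 at days 3, 6 and 12, and 9 of 10 at day 21, where Ces3a was the exception.

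Ces1e, which encodes the esterase that holds β-glucuronidase in the endoplasmic reticulum, had the lowest log2 fold change after Ces1d at day 6, though not at the other days. At day 3, Ces1e was at 80.2, 100.1, 94.2, 82.4 and 117 CPM in WT and 54.4, 57.96, 73.7, 69.97 and 36.4 CPM in HNKO. At day 6 it was at 112, 130.5, 129 and 102 CPM in WT and 69.6, 57.2, 31.2, 55.7 and 63.95 CPM in HNKO. The groups did not overlap at either day, and library 29 was far below the other HNKO libraries of day 6. At day 12, WT values were 94.8, 124, 119.6, 89.3 and 103 CPM, and HNKO values ran from 60.9 to 95.2 CPM with a median of 79.0 CPM. At day 21, Ces1e was at 102, 123, 117, 99.7 and 98.2 CPM in WT and 35.1, 66.1 and 68.9 CPM in HNKO, without overlap. The failed libraries had 64.9 and 52.4 CPM, within the values of the other HNKO libraries of that day. Its log2 fold changes were -0.70 (SE 0.18), -1.10 (SE 0.19), -0.42 (SE 0.17) and -0.93 (SE 0.21).

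Ces1f, a relative of Ces1d that also hydrolyses triglyceride, was at 285, 348, 274, 306 and 345 CPM in WT and 209, 178, 233, 222 and 138 CPM in HNKO at day 3. At day 6 it was at 349, 412, 310.1 and 274 CPM in WT and 221, 113, 102, 180.3 and 240.0 CPM in HNKO. HNKO and WT were separate at both days, with libraries 7 and 29 lowest at day 6. At day 12, 1 of 6 HNKO libraries overlapped with the WT range of 246 to 328 CPM. At day 21, Ces1f was at 307, 306, 357, 345 and 296 CPM in WT and 121, 207 and 257 CPM in HNKO, and the failed libraries were at 184 and 189 CPM. The log2 fold changes of Ces1f were -0.67 (SE 0.19), -0.97 (SE 0.20), -0.37 (SE 0.18) and -0.72 (SE 0.22). With all 40 libraries in the fit the value of day 21 was -0.75 (SE 0.19). Leaving out 1 library at a time gave -0.96 to -0.46 for that day.

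Ces1g, an esterase known from mouse models for its effect on liver and plasma triglyceride, had its largest difference at day 6. At that day it was at 219, 303, 216 and 162 CPM in WT and 144, 89.3, 133, 146 and 156 CPM in HNKO, with all HNKO libraries below all WT libraries. At the other days the groups overlapped. The log2 fold changes were -0.45 (SE 0.14), -0.75 (SE 0.15), -0.13 (SE 0.14) and -0.19 (SE 0.17) at days 3, 6, 12 and 21.

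Ces1c, the most abundant member, had a small and similar difference at each day, with log2 fold changes of -0.35 (SE 0.15), -0.40 (SE 0.16), -0.40 (SE 0.14) and -0.41 (SE 0.18). At day 12, it was at 2919, 3288, 3306, 3108 and 2912 CPM in WT and at 2030.0 to 2815 CPM in HNKO, with a median of 2252 CPM. Ces1c thus did not overlap between the groups at day 12, nor at days 6 and 21, although it was called at no day. At day 21 the gap was narrow, with the highest HNKO library at 2722 CPM and the lowest WT library at 2728 CPM. Failed library 17, at 2862 CPM, lay above that WT library. Leaving out 1 library at a time gave log2 fold changes of Ces1c from -0.49 to -0.24 at day 21.

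Ces1b, whose coding sequence is the closest to that of Ces1c, was the least abundant member. Its range was 33 to 75.7 CPM in WT and 15.4 to 69.6 CPM in HNKO. At day 21, Ces1b was at 53.5, 53.4, 58.7, 41.5 and 50.9 CPM in WT and 15.4, 36.1 and 31.3 CPM in HNKO, but at 48.5 and 57.3 CPM in the failed libraries. The log2 fold change of day 21 was -0.91 (SE 0.32) without the failed libraries and -0.46 (SE 0.29) with them. The separation of Ces1b at day 21 therefore held for the 3 passed libraries only. Leaving out 1 library at a time gave log2 fold changes from -1.12 to -0.60 for that day.

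Ces2a and Ces2e belong to the Ces2 group, whose enzymes prefer esters with a small acyl part and also act on acylglycerols. Ces2a was at 123, 116, 127 and 114 CPM in WT and 69.7, 50.5, 35.4, 81.4 and 85.9 CPM in HNKO at day 6. At day 21 it was at 111, 154, 170.0, 108 and 105 CPM in WT and 40.5, 73.4 and 74.9 CPM in HNKO, with 88.9 and 71.1 CPM in the failed libraries. Neither day showed overlap, while at day 3 HNKO library 22, at 129 CPM, was above all WT libraries. Its log2 fold changes were -0.60 (SE 0.25), -0.90 (SE 0.26), -0.56 (SE 0.24) and -1.04 (SE 0.30). For Ces2e the values at day 6 were 191, 196, 334 and 215 CPM in WT and 166, 86.5, 125, 161 and 158 CPM in HNKO. Ces2e overlapped at the other days, and its log2 fold changes were -0.46 (SE 0.24), -0.75 (SE 0.25), -0.10 (SE 0.23) and -0.04 (SE 0.28). At day 21 the value within libraries 22 to 41, to which all passed HNKO libraries of that day belong, was -0.43.

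Ces3a and Ces3b, a pair of near-identical genes that encode liver esterases, overlapped between WT and HNKO at every day. Ces3a ranged from 403 to 1682 CPM in WT and from 294 to 1246 CPM in HNKO, and Ces3b from 143 to 652 CPM in WT and from 71.4 to 448 CPM in HNKO. The log2 fold changes of Ces3a were -0.41 (SE 0.33), -0.15 (SE 0.35), -0.05 (SE 0.31) and 0.27 (SE 0.38), and those of Ces3b were -0.81 (SE 0.37), -0.72 (SE 0.39), -0.31 (SE 0.35) and -0.16 (SE 0.43). Leaving out 1 library turned the sign of Ces3a at day 6 (up to 0.18) and day 12 (up to 0.16), and of Ces3b at day 21 (up to 0.16). Neither was called at any day, and the same held for Ces1b and Ces1c.

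Individual livers differed in how many members were low. HNKO library 29, of day 6, was below every WT library of its day in all 10 members, and libraries 2, 3 and 23, of day 3, and 7, of day 6, were so in 9. At day 21, library 37 was the lowest HNKO library in 9 of 10 members. Library 29 also had the lowest summed hepatocyte markers of all libraries, 74700 CPM, and the highest sums of bile duct markers, 764 CPM, and stellate cell markers, 1266 CPM. Library 37 had the lowest hepatocyte sum of day 21, 96831 CPM, and the highest bile duct and stellate sums of that day, 495 and 1008 CPM. Library 23 had the lowest hepatocyte and highest stellate sum of day 3, 88241 and 1113 CPM, and library 2 the highest bile duct sum, 415 CPM. Hepatocyte, bile duct and stellate sums were 116040, 300 and 553 CPM in library 3 and 108310, 219 and 951 CPM in library 7. The part of these markers in the low values was not tested. An HNKO library above all WT libraries of its day was seen for Ces1b in library 4, Ces2a in library 22, Ces3a and Ces3b in library 32 and Ces2e in library 36. Failed library 17 was below all WT libraries in 4 members and failed library 18 in 5, and neither was above all WT libraries in any.

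Values by label series come from the same libraries that chose the genes, so they are a description as well. The median difference of the 10 members at day 3 was -0.65 in libraries 1 to 21 and -0.56 in libraries 22 to 41, with all 10 below 0 in each. At day 6 it was -0.98 with 10 of 10 below 0, and -0.71 with 9 of 10 below 0. At day 12 it was -0.54 and -0.26, with 10 of 10 below 0 in each series. Ces1d differed by -1.04 and -1.08 in the 2 series at day 3 and by -1.46 and -1.17 at day 6, but by -1.18 in libraries 1 to 21 and -0.39 in libraries 22 to 41 at day 12. Ces3a at day 6 in libraries 22 to 41 was thus the 1 value of these 3 days above 0. At day 21 the libraries 22 to 41 gave -0.60, with 8 of 10 below 0, the others being Ces3a and Ces3b.

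Of the 9 hepatocyte markers, edgeR called 3 lower in HNKO at day 6 and none at the other days. The summed level of the 9 markers was 111230 to 169500 CPM in WT libraries and 74700 to 149690 CPM in HNKO libraries. At day 6 it was 141550 to 155590 CPM in WT and 74700 to 128240 CPM in HNKO, without overlap, and at days 3, 12 and 21 the groups overlapped. All 9 were below 0 in log2 fold change at each day, with medians of -0.29, -0.28, -0.18 and -0.25. By edgeR, Alb (-0.67, SE 0.18, adjusted p = 0.0138), Ttr (-0.64, SE 0.18, adjusted p = 0.0189) and Apoh (-0.49, SE 0.16, adjusted p = 0.0328) fell at day 6. At days 3, 12 and 21 edgeR called 0 of 9, with 3, 1 and 0 at an unadjusted p under 0.05 and 3, 0 and 0 called by DESeq2. In bulk liver, fewer cells of a type and less RNA per cell cannot be told apart.

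Markers of bile duct cells had a higher sum in every HNKO group. Their summed level, over 7 genes, was 41.9 to 60.7 CPM in WT libraries and 118 to 764 CPM in HNKO libraries, without overlap. The number called higher was 5, 5, 4 and 3 of 7 at days 3, 6, 12 and 21, and none was called lower. The log2 fold change was below 0 for 0, 0, 0 and 1 of the 7 in the same order of days. Spp1, which encodes osteopontin and was the most abundant of the list, rose at each day. The log2 fold changes of Spp1 were 2.68 (SE 0.36), 3.22 (SE 0.40), 2.06 (SE 0.34) and 2.90 (SE 0.39), with adjusted p of 5.28e-05, 6.75e-06, 0.000626 and 9.27e-05 in the same order of days. Epcam and Cftr were also called higher at each day, and Cftr was at 0 in some libraries. The part of these markers in the values of the carboxylesterases was not tested.

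Other cell types were followed by shorter lists. Of 6 stellate cell markers, 3, 4, 2 and 3 were called higher at days 3, 6, 12 and 21. The difference of Col1a1, a fibrillar collagen gene, was lowest at day 3 (log2 fold change 1.84, SE 0.55, adjusted p = 0.0460) and highest on day 6 (4.02, SE 0.67, adjusted p = 0.000197). Lrat went the other way at days 3, 6 and 12 (-0.22, SE 0.26, -0.14, SE 0.27, and -0.38, SE 0.24). It was at 0.02 (SE 0.30) at day 21 and was called at no day. The 6 markers summed to 281 to 434 CPM in WT and 272 to 1266 CPM in HNKO libraries, with Dcn the most abundant. Of 5 macrophage markers, Cd68 (0.88, SE 0.26, adjusted p = 0.0240) and Csf1r (0.45, SE 0.14, adjusted p = 0.0314) rose at day 6. At days 3, 12 and 21 edgeR called 0 of 5, with 0, 4 and 0 at an unadjusted p under 0.05 and 0, 2 and 0 called by DESeq2. Clec4f was the most abundant macrophage marker, and the list summed to 195 to 466 CPM in WT and 251 to 564 CPM in HNKO libraries. Of 4 endothelial markers, Kdr fell at day 6 (-0.37, SE 0.10, adjusted p = 0.00934) and day 12 (-0.27, SE 0.09, adjusted p = 0.0490), and Stab2 was the most abundant. Endothelial sums were close between genotypes, at 411 to 514 CPM in WT and 395 to 497 CPM in HNKO libraries. Of the 2 intestinal markers tested, Fabp2 fell at day 3 (-0.78, SE 0.20, adjusted p = 0.0200) and day 6 (-0.67, SE 0.21, adjusted p = 0.0277), and Vil1, which bile duct cells also express, rose at day 12 (2.52, SE 0.60, adjusted p = 0.00999). Summed over all 5, the intestinal list was at 37.05 to 98.0 CPM in WT and 26.9 to 65.4 CPM in HNKO libraries.

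**Figure D2:**
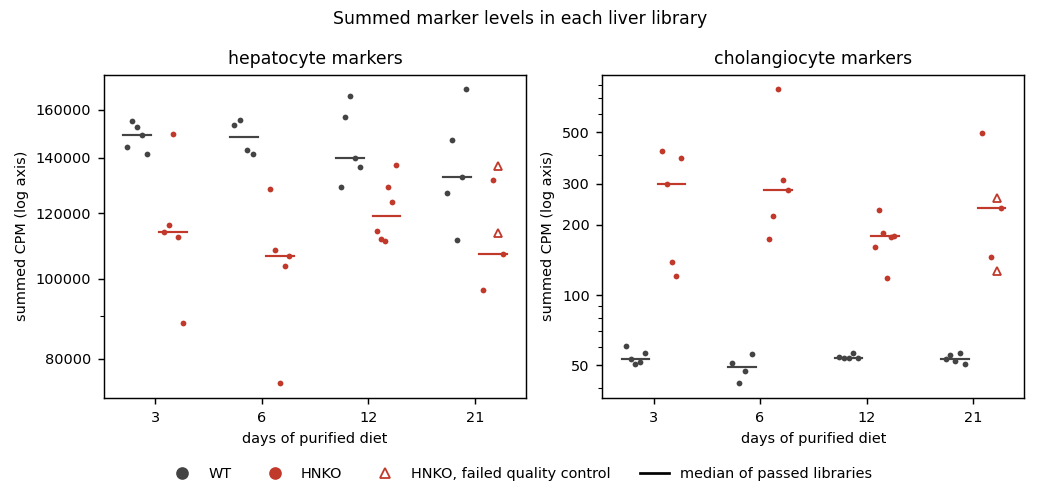
Summed CPM of the hepatocyte markers and of the bile duct (cholangiocyte) markers in each library against days of purified diet, WT in grey and HNKO in red, with failed libraries as open triangles. The bile duct sum lies between 41.9 and 60.7 CPM in all WT libraries and between 118 and 764 CPM in the passed HNKO libraries.

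Levels relative to the hepatocyte markers are given as a description too, since they come from the comparison that chose the genes. Scaling each library to its summed hepatocyte marker counts moved the median of all genes by 0.38, 0.53, 0.26 and 0.29 at days 3, 6, 12 and 21. Relative to the markers, Ces1d differed by -0.69 (SE 0.15), -0.78 (SE 0.16), -0.53 (SE 0.18) and -0.78 (SE 0.25), and the groups did not overlap at days 3 and 6. Ces1e differed by -0.35 (SE 0.14), -0.61 (SE 0.12), -0.16 (SE 0.09) and -0.69 (SE 0.28). For Ces1e the groups did not overlap at day 6 only. Ces1c was at 0.00 (SE 0.16), 0.11 (SE 0.13), -0.14 (SE 0.10) and -0.13 (SE 0.18), within its SE of the markers at days 3, 6 and 21. The medians of the 10 members on this scale were -0.22, -0.28, -0.15 and -0.31. Alb, the most abundant marker, weighs most in the sum.

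Differences between days within a genotype were not used by the rule and were tested. Within WT liver, edgeR called 0 of the 10 members for a day effect over the 4 days, beside 5.84% of all tested genes. There were 2 of 10 at an unadjusted p under 0.05, Ces3a (adjusted p = 0.180) and Ces3b (adjusted p = 0.115), and DESeq2 called 0. For day 21 against day 3 in WT, edgeR again called 0 of 10, beside 4.95% of all genes, with 2 at an unadjusted p under 0.05 and 0 called by DESeq2. These were once more Ces3a (-0.81, SE 0.33, adjusted p = 0.147) and Ces3b (-1.02, SE 0.37, adjusted p = 0.103). Ces3b was at 482, 652, 426, 449.7 and 581 CPM at day 3 and 165, 296, 437, 143 and 237 CPM at day 21 of PD in WT, so that 4 of 5 libraries of day 21 were below all of day 3. Without WT library 21 the difference of Ces3b was -1.30 (adjusted p = 0.0472), and over all settings its adjusted p ran from 0.0472 to 0.250. Ces1d in WT differed by 0.35 (SE 0.21, adjusted p = 0.347) between these days.

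Within HNKO liver, edgeR called 1 of the 10 members for a day effect, Ces1g (adjusted p = 0.0230), beside 7.9% of all tested genes. The 2 shares are close, so the count says nothing particular of the members. DESeq2 called the same gene. Ces1g was at 154, 146, 179, 134 and 164 CPM at day 3, 144, 89.3, 133, 146 and 156 CPM at day 6, 174 to 194 CPM with a median of 186 CPM at day 12, and 179, 257 and 192 CPM at day 21. The values of day 12 lay above those of day 6 in every library, and 1 library of day 3 reached them. Day 21 against day 3 was 0.43 (SE 0.16, adjusted p = 0.143), and the lowest library of day 21, at 178.9 CPM, was just above the highest of day 3, at 178.7 CPM. The day effect was lost without library 7 (adjusted p = 0.0571) and without library 38 (adjusted p = 0.0704), in a range over settings from 0.00355 to 0.0704. Whether Ces1g moved differently in HNKO and WT was not tested, since the members were chosen by the difference between genotypes.

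For day 21 against day 3 in HNKO, edgeR called 0 of the 10, beside 2.43% of all genes, with 1 at an unadjusted p under 0.05 and 0 by DESeq2. Ces1d differed by 0.33 (SE 0.24, adjusted p = 0.507) between these days, and Ces1b by -0.53 (SE 0.32, adjusted p = 0.420). Ces1e reached an unadjusted p of 0.0136 for a day effect in HNKO (adjusted p = 0.105), with medians of 57.96, 57.2, 78.98 and 66.1 CPM over the 4 days.

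None of the 4 other carboxylesterase genes tested passed the test of the difference between genotypes. That comparison chose the members, and these genes are what the choice left out, so nothing is read from the absence of calls. Of the 10 outside the members, 4 were tested, and edgeR called 0 of 4 at each day in HNKO against WT, with 1, 0, 0 and 0 at an unadjusted p under 0.05 and 0 called by DESeq2. The 1 was Ces4a at day 3 (-1.29, SE 0.48, adjusted p = 0.105), a gene near 1 CPM. Ces2c, a liver Ces2 enzyme that hydrolyses acylglycerols, differed by -0.53 (SE 0.26), -0.55 (SE 0.28), -0.38 (SE 0.25) and 0.09 (SE 0.30), with adjusted p of 0.241, 0.197, 0.363 and 0.917. Ces2g was at 39.1 to 72.5 CPM in WT and 29.8 to 69.3 CPM in HNKO, and Ces2h stayed under 2 CPM.

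Ces2c fell over the feeding period in WT. It was at 18.03, 14.2, 13.4, 25.1 and 16.5 CPM at day 3 and 6.82, 5.57, 5.95, 12.7 and 8.08 CPM at day 21. All WT libraries of day 21 were below all of day 3, a difference of -1.17 on the log2 scale (SE 0.26, adjusted p = 0.00641). The effect over all 4 days was also called (adjusted p = 0.0204), but not without library 25, 19, 20 or 21 (adjusted p = 0.0632, 0.0563, 0.06 and 0.0616, in a range over settings from 0.00243 to 0.0632). In HNKO, Ces2c differed by -0.55 (SE 0.31, adjusted p = 0.364) between these days. The test of a difference between genotypes over the days gave an adjusted p of 0.9998 for Ces2c, and it called 0 of all tested genes. About 35.4% of the transcript stretches of 51 bases of Ces2c occur in other genes, mainly the pseudogene Ces2d-ps, so its counts are less certain. In HNKO, Ces2g showed a day effect (adjusted p = 0.0288), with 0.36 (SE 0.15, adjusted p = 0.174) for day 21 against day 3. This effect was lost without library 7, 29 or 38 (adjusted p = 0.0740, 0.0626 and 0.0606, in a range over settings from 0.00887 to 0.0740).

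Of the carboxylesterase genes of the table, 6 did not pass the filter: Ces1a, Ces1h, Ces2b, Ces2d-ps, Ces2f and Ces5a. The highest value among them over the 38 libraries was 0.417 CPM, for Ces2b in a WT library of day 3. Ces5a, a gene known from kidney and epididymis, was at 0 in 18 of 19 WT and 18 of 19 HNKO libraries.

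Genes of neutral lipid hydrolysis and lipid droplets were examined as a list of 23, which also holds genes of lipid synthesis and lipoprotein assembly. At days 3, 6, 12 and 21, 2, 5, 3 and 1 were called lower and 0, 1, 1 and 0 higher, and 21, 21, 20 and 18 of the 23 had a value below 0. The medians were -0.33, -0.34, -0.22 and -0.26, beside the values near 0 over all tested genes and those of -0.29, -0.28, -0.18 and -0.25 over the hepatocyte markers. Over all tested genes, 1.71%, 4.37%, 3.27% and 0.916% were called lower. Abhd6, a hydrolase of monoacylglycerol, fell at day 6 (-0.82, SE 0.21, adjusted p = 0.0102) and day 12 (-0.78, SE 0.19, adjusted p = 0.0126). Mttp, the transfer protein that loads lipid onto apolipoprotein B, fell at day 6 (-0.56, SE 0.17, adjusted p = 0.0222) and day 12 (-0.62, SE 0.15, adjusted p = 0.0103). Dgat2, which makes triglyceride, fell at day 3 (-0.62, SE 0.18, adjusted p = 0.0450) and day 6 (-0.61, SE 0.19, adjusted p = 0.0325). Nceh1, a hydrolase of cholesteryl esters, fell at day 3 (-0.70, SE 0.18, adjusted p = 0.0207) and day 12 (-0.68, SE 0.17, adjusted p = 0.0128). Lipoprotein lipase, Lpl, went the other way and rose at day 6 (1.09, SE 0.30, adjusted p = 0.0145) and day 12 (0.92, SE 0.27, adjusted p = 0.0310). Called at 1 day only were Lipc and G0s2 at day 6 and Soat2 at day 21, which are named after their values were seen. Most of the list did not pass the test.

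Between days, edgeR called 0 of the 23 for an effect in WT, beside 5.84% of all tested genes. In WT, 3 were at an unadjusted p under 0.05 and 1, Lipc, was called by DESeq2. In HNKO edgeR called 1, Lipe, the hormone-sensitive lipase (adjusted p = 0.0214), beside 7.9% of all tested genes. The count thus says nothing particular of the list.

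Transcription factors known to act on liver genes formed a list of 14. Of these, Cebpa (-0.57, SE 0.15, adjusted p = 0.0282) and Ppara (-0.64, SE 0.18, adjusted p = 0.0374) fell at day 3, and Nr1i3 (-1.21, SE 0.30, adjusted p = 0.00756), which encodes the receptor CAR, fell at day 6. These were named after their values were seen, since edgeR called none at 2 days, while DESeq2 called Nr1i3 at days 3 and 6. By edgeR, Nr1i3 at day 3 was at -0.92 (SE 0.29, adjusted p = 0.0564). At days 12 and 21 edgeR called 0 of 14, with 2 and 3 at an unadjusted p under 0.05 and 0 by DESeq2 at each. The medians of the list were -0.25, -0.31, -0.12 and -0.20, beside -0.29, -0.28, -0.18 and -0.25 over the hepatocyte markers. Of all tested genes, 1.71%, 4.37%, 3.27% and 0.916% were called lower at these days. Ppara, the fatty acid receptor that controls lipid oxidation, rose from day 3 to day 21 within HNKO (0.85, SE 0.21, adjusted p = 0.0233). Within WT, Ppara differed by 0.41 (SE 0.18, adjusted p = 0.188) and was not called. Nr1h3 fell between the same days in WT (-0.37, SE 0.10, adjusted p = 0.0212). In HNKO, Nr1h3 differed by -0.10 (SE 0.11, adjusted p = 0.715).

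Livers with more Ces1d than their group tended to have more of most other members. For this comparison the mean of its group was taken from each library, and deviations were compared over the 38 libraries by Pearson's r and Spearman's rho, with 100000 permutations within groups and p adjusted over 11 relations. Ces1e (r = 0.68, adjusted p = 0.000605; rho = 0.65, adjusted p = 0.00066) and Ces2a (r = 0.68, adjusted p = 0.000605; rho = 0.72, adjusted p = 0.00044) were closest to Ces1d. The unadjusted permutation p of r was 9e-05 for Ces1e and 0.00011 for Ces2a. Ces1f (r = 0.62, rho = 0.66), Ces1b (r = 0.62, rho = 0.64) and Ces1c (r = 0.61, rho = 0.64) followed, each with an adjusted p of 0.000858 for r and of at most 0.00088 for rho. Ces3b (r = 0.53, adjusted p = 0.00413; rho = 0.52, adjusted p = 0.00447), Ces3a (r = 0.46, adjusted p = 0.0154; rho = 0.46, adjusted p = 0.0166) and Ces1g (r = 0.44, adjusted p = 0.00900; rho = 0.40, adjusted p = 0.0215) were lower but passed. Ces2e did not pass (r = -0.10, adjusted p = 0.590; rho = -0.15, adjusted p = 0.427). Without libraries 3 and 29, the 2 farthest from the median of Ces1d, r was 0.66 for Ces1e and 0.62 for Ces2a, and the same 8 of 9 members passed by both measures.

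Fewer relations passed in subsets, which hold fewer libraries. Among the 19 WT libraries, only Ces1g passed (r = 0.75, adjusted p = 0.00902; rho = 0.74, adjusted p = 0.0176). Among the 19 HNKO libraries, Ces2a (r = 0.80, adjusted p = 0.00319), Ces1c (r = 0.73, adjusted p = 0.00365), Ces3b (r = 0.73), Ces1b (r = 0.72), Ces1e (r = 0.72) and Ces1f (r = 0.65, adjusted p = 0.00517) passed, and Ces1g (r = 0.21), Ces3a (r = 0.47) and Ces2e (r = -0.04) did not. The difference between the genotypes in these correlations was not tested. In libraries 1 to 21 (n = 18), Ces1e (r = 0.76), Ces1g (r = 0.75), Ces1c (r = 0.64) and Ces3a (r = 0.60) passed by Pearson's r. In libraries 22 to 41 (n = 20), only Ces2a passed (r = 0.89, adjusted p = 0.0235). There Ces1e (r = 0.84), Ces1f (r = 0.81), Ces1c (r = 0.74), Ces1b (r = 0.70) and Ces3b (r = 0.67) had a higher r than over all 38 libraries, with adjusted p from 0.0592 to 0.0739.

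The 2 marker sums were related to Ces1d in opposite directions. The hepatocyte sum had r = 0.56 (adjusted p = 0.00227; rho = 0.59, adjusted p = 0.00116) and the bile duct sum r = -0.60 (adjusted p = 0.00259; rho = -0.59, adjusted p = 0.00239). In the HNKO libraries alone these were 0.67 (adjusted p = 0.00418) and -0.70 (adjusted p = 0.00418), and in the WT libraries alone 0.31 (adjusted p = 0.314) and -0.35 (adjusted p = 0.277). Livers with low Ces1d for their group thus had fewer hepatocyte and more bile duct marker counts over all 38 libraries. The part of this in the correlations between members was not tested. Spp1 weighs most in the bile duct sum, with a highest value of 728 CPM beside a highest sum of 764 CPM.

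Many genes outside the family followed Ces1d more closely than its relatives did. Among 8426 genes of at least 10 CPM on average, 109 had a higher r than Ces1e, 110 than Ces2a, 256 than Ces1f and 1271 than Ces1g. The 5 most like Ces1d over the 38 libraries were 1300017J02Rik (r = 0.85), Ndufb11 (r = 0.83), Fbxo9 (r = 0.83), Urod (r = 0.81) and Jtb (r = 0.81). Of these, Ndufb11, a subunit of respiratory complex I, was lower in HNKO at day 6 (-0.48, SE 0.13, adjusted p = 0.0163). The other 4 genes were called at no day, with 1300017J02Rik at -0.42 (SE 0.13, adjusted p = 0.0580) at day 3.

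All 20 genes lie on chromosome 8, in a pair of clusters. The Ces1 genes and Ces5a, 9 genes on the minus strand, span chr8:93020214-93535830 of GRCm38. The Ces2, Ces3 and Ces4a genes, 11 on the plus strand, span chr8:104734003-105150109. Ces1d lies at chr8:93166068-93197838 and Ces1e at chr8:93201218-93229619, next to each other. The members thus stand side by side with relatives of near-zero count, such as Ces1a and Ces1h at the sides of the Ces1 members.

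**Figure D3:**
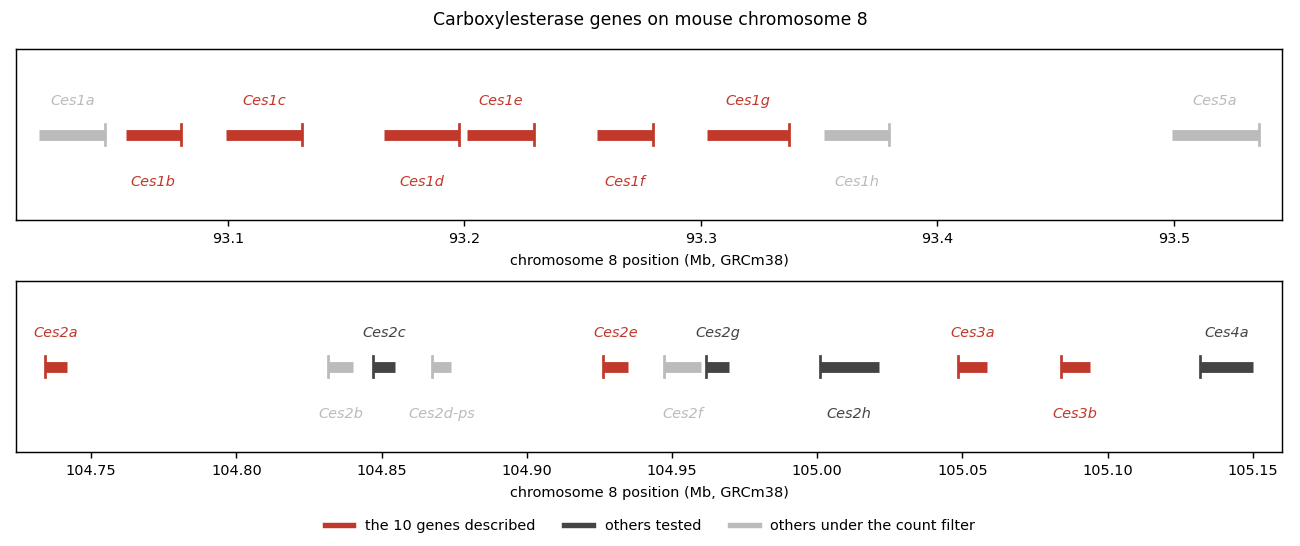
Map of the 20 carboxylesterase genes on mouse chromosome 8 (GRCm38, in Mb), with the 10 described genes in red, other tested genes in dark grey and genes under the count filter in light grey; the thin bar marks the start of transcription. The 6 Ces1 members lie together in the upper panel, and in the lower panel Ces2a is the first gene, Ces2e stands between other Ces2 genes, and Ces3a and Ces3b are neighbours between Ces2h and Ces4a.

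Neighbours outside the family were counted as well, and their counts are to be read beside the shares of all tested genes given above. Within 1 Mb of the Ces1 cluster, 25 other genes were tested, of which 0, 0, 1 and 0 were called lower and 2, 2, 0 and 1 higher at days 3, 6, 12 and 21. Within 1 Mb of the other cluster, of 64 tested genes 1, 2, 1 and 1 were called lower and 2, 6, 2 and 1 higher. The median log2 fold changes of these neighbours lay between -0.07 and 0.13.

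Related sequences limit how well counts are told apart. Over the coding sequence, Ces3a and Ces3b were 95.3% identical, Ces1b and Ces1c 91.1%, Ces2a and Ces2e 83.3%, and Ces1d and Ces1g 81.5%. Identity within the Ces1 members was at least 74.5%, and between them and the Ces2 and Ces3 members 62.5% to 65.3%. Of all 51-base stretches of a gene's transcripts, the length of a read, 25.1% of Ces3a and 25.7% of Ces3b occur in the other of the pair, so a read end from such a stretch matches both. For Ces2a 16.9% were shared, mostly with Gm7208, for Ces1c 12.6% and for Ces1b 11.1%, mostly with each other. Ces1d shared 0.994%, Ces1f 0.843%, Ces1g 1.58%, Ces1e 2.88% and Ces2e 3.12%. The values of Ces3a, Ces3b, Ces2a, Ces1b and Ces1c are therefore less certain than those of Ces1d, Ces1e and Ces1f. Gm45909 lies in an intron of Ces1d on the same strand, and its log2 fold changes were -0.99 (SE 0.62), -1.21 (SE 0.63), -0.36 (SE 0.57) and -1.03 (SE 0.70), called at no day. Gm45724 overlaps Ces3a on the opposite strand by 1 base of exon, and whether counting used the strand is not stated.

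The set of RefSeq promoter sequences used (GRCm38.p6) held 7 of the 10 members, with 2 entries for Ces1b. Each sequence runs from 250 bases before to 50 after the start of transcription. Ces1d, Ces1f and Ces3a had no entry in this set, which does not say what RefSeq holds for them. Each motif was searched on both strands in the 32851 promoters of the same length. TATAAA was found in Ces1g and Ces3b and in 13.6% of all promoters, and CCAAT in Ces1b, Ces1c, Ces1g, Ces2a and Ces3b and in 37.4%. GTTAAT was in Ces3b (7.1% of all), AGGTCA in Ces2a (16.3%) and TGTTTGC in Ces1b and Ces1c (5.07%). A match describes letters in the window and no more.

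The Ces1 promoters share the letters TAAACTC, a motif picked after their sequences were seen. It occurs in Ces1b, Ces1c, Ces1e and Ces1g, all 4 of the Ces1 members with an entry, and in 2.82% of all promoters. The stretches around it are shown, 5′ to 3′ on the minus strand, at chr8:93080034-93080123 for Ces1b, chr8:93131388-93131477 for Ces1c, chr8:93229570-93229651 for Ces1e and chr8:93337295-93337384 for Ces1g. Capitals mark TAAACTC, and the lines let the neighbouring letters be compared.
Ces1b: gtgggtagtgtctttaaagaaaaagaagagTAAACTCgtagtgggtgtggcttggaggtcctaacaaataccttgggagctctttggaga
Ces1c: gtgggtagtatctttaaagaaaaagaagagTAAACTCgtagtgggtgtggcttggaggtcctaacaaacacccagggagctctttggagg
Ces1e: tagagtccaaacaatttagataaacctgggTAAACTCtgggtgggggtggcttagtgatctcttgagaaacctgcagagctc
Ces1g: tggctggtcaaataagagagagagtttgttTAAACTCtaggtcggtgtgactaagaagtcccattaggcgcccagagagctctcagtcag
Ces1b and Ces1c share an unbroken stretch of 58 bases here, which no other gene's promoter in the table holds. The first base of TAAACTC lies at -76 in Ces1b, -164 in Ces1c, -2 in Ces1e and -145 in Ces1g relative to the start. Ces1g has another match on the opposite strand at -29. Positions count from the start in the promoter set, which for Ces1g differs from the GENCODE M21 start of the gene at chr8:93337308.

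Ces2a and Ces2e, which were both called lower at day 6, share shorter stretches in the 250 bases before the start. These are chr8:104733753-104734002 for Ces2a and chr8:104926010-104926259 for Ces2e, both on the plus strand, and capitals mark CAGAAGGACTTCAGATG and GAACTTTGCCCC.
Ces2a: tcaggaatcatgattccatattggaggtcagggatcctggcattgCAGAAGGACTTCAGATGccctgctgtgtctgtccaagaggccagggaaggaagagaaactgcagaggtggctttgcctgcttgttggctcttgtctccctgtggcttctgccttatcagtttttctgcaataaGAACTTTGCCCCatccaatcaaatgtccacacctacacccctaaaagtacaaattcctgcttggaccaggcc
Ces2e: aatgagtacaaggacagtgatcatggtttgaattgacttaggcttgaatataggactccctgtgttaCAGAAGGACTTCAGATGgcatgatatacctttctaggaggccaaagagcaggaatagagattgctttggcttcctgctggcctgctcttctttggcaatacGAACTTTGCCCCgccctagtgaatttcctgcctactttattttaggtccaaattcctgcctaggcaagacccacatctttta
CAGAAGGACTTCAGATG occurs in these 2 promoters alone, or 0.00609% of all, and GAACTTTGCCCC in these and in that of Gm15638, or 0.00913%. Both stretches were picked after the sequences were seen. The pair thus shares letters outside the coding part as well.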

How the data were processed

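Total RNA-seq of whole liver was aligned by the authors with STAR 2.7.2b to GRCm38 and summed per gene with featureCounts 1.6.4, and the deposited values are raw read counts of 55487 genes in 40 libraries. Library identity and groups came from the sample labels. The 38 libraries that passed quality control were analysed with edgeR 4.0.16 (R 4.3.3): filterByExpr (minimum count 10, total 15, proportion 0.7) kept 20297 genes, which held 99.937% of counts. TMM factors, 1 mean per group and the quasi-likelihood test in the computation of edgeR 3 followed, with Benjamini-Hochberg adjustment over all tested genes. DESeq2 1.42.0 was an alternative, and the closing section gives the others. Log2 CPM used a prior count of 2. Gene models were those of GENCODE M21, where the authors used M22. The procedure was tested on simulated data, from which no value is given here and nothing is read. The members and lists were chosen with earlier results of these data known. Named genes were Nampt, all carboxylesterases, neutral lipid and transcription factor genes called at 2 or more days, and the 5 genes most correlated with Ces1d. That rule did not extend to the marker lists, where Krt7, Sox9, Col1a2, Col3a1 and Pdgfrb were also called at 2 or more days. Other list genes in the text, called at 1 day or within a genotype, or the most abundant of a list, were named after their values were seen. No protein table was in the reference, so the planned protein comparison was not run. The smallest group holds 3 libraries, which limits precision.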

Additional observations from a re-analysis of the deposited data

Results flagged for a closer look

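For Nampt and the 10 carboxylesterase genes, each gene in each group of 4 to 6 libraries made 77 sets of values, and in 3 of them 1 library lay far from the others of its group. Chance gives such a distance in about 1 in 20 sets, so 3 of 77 is no more than chance gives. Ces1e in HNKO library 29 of day 6 was at 31.2 CPM, while the other 4 libraries of the group were at 55.7 to 69.6 CPM. Ces1g in HNKO library 7 of day 6 was at 89.3 CPM, with the others at 133 to 156 CPM. Nampt in WT library 16 of day 12 was at 151 CPM, with the others at 59.4 to 69.7 CPM. Library 16 also had the highest Ces1d value of its group, 883 CPM, and library 29 was the lowest of its group in 7 of 10 members, with the lowest hepatocyte sum, 74700 CPM, and the highest bile duct and stellate sums, 764 and 1266 CPM, of all libraries. The cause was not tested.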

How the results depend on the processing

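Direction and call of most results held over the alternatives. The cause of the changes below was not tested. Members called lower at day 12 were 0 with only the 2 groups of day 12 in the fit. Leaving out 1 library gave 1 to 5 members called lower at day 3 (1 without library 5, 2, 3 or 23, and 5 without library 4), 4 to 6 at day 6, 0 to 1 at day 12 (0 without library 16) and 0 to 4 at day 21 (0 without library 37). Members with a day effect in HNKO were 0 to 1 (0 without library 7 or 38), and in WT 0 throughout. All genes called lower at day 3 were 614 by DESeq2, 186 without a filter, 121 with all 40 libraries and 153 with the groups of that day alone. At day 6 they were 454 without a filter, 462 with 40 libraries and 269 with the groups of that day, and at day 12 they were 359, 256 and 321. At day 21 they were 322 by DESeq2, 86 without a filter and 444 with 40 libraries. Without 1 library these counts ran from 91 to 662 at day 3 (library 5 180, 24 171, 25 101, 2 118, 3 91, 4 570, 22 662, 23 96 and 29 535), from 217 to 1060 at day 6 (8 487, 10 499, 29 217 and 30 537), from 278 to 686 at day 12 (15 278, 12 430, 13 366 and 35 433) and from 1 to 222 at day 21 (19 71, 20 103, 41 81, 37 1, 38 113 and 40 113). Genes with a day effect in WT were 1886 by DESeq2, 581 with 40 libraries and 2224 with label series as a covariate, and without 1 library 811 to 1385 in WT and 1183 to 1770 in HNKO. Without library 37, day 21 against day 3 in HNKO turned sign for Ces1e (0.22, in a range from -0.20 to 0.22) and Ces1f (0.26, in a range from -0.25 to 0.26), with adjusted p from 0.6998 and 0.661 upwards over all settings. With 40 libraries, Ces1g passed for the same days (0.48, adjusted p = 0.0267, in a range up to 0.562), as Ces3b did in WT without library 21. Of the 380 values of HNKO against WT without 1 library, 12 had the other sign, 0 of them where the gene was called. These were values of Ces2e at days 12 and 21, Ces3a at days 6 and 12, and Ces3b at day 21. Of 360 values under other settings, 339 stayed within the spread of replicates, and the 21 that moved further were all relative to hepatocyte markers. On that scale 8 of 40 values had the other sign (Ces1c and Ces3a at day 6, Ces1g, Ces2e and Ces3a at day 12, and Ces1g, Ces2e and Ces3b at day 21). Correlations with Ces1d that no longer passed were, in WT only, Ces1b 0.38, Ces1c 0.29, Ces1e 0.58, Ces1f 0.57, Ces2a 0.35, Ces3a 0.44, Ces3b 0.043, hepatocyte sum 0.31 and bile duct sum -0.35. In HNKO only they were Ces1g 0.21 and Ces3a 0.47. In libraries 1 to 21 they were Ces1b 0.61, Ces1f 0.52, Ces2a 0.58, Ces3b 0.37 and bile duct sum -0.52, and in libraries 22 to 41 Ces1b 0.70, Ces1c 0.74, Ces1e 0.84, Ces1f 0.81, Ces1g 0.28, Ces3a 0.52, Ces3b 0.67, hepatocyte sum 0.56 and bile duct sum -0.83. Each subset has fewer libraries. By the longest transcript, the level of Ces1c was 1698 and that of Ces1f 159 CPM per kilobase.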
